A study of Mus musculus with 6 samples.

Results

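Circular RNAs (circRNAs) of 9 genes in the group I metabotropic glutamate receptor pathway were examined in mouse cortex: the receptor gene Grm5, the G protein gene Gnaq, the phospholipase C genes Plcb1 and Plcb4, the inositol trisphosphate receptor genes Itpr1 and Itpr2, and the protein kinase C genes Prkca, Prkcb and Prkce. A circRNA was taken as a member when its single listed host gene was 1 of these 9. All 9 hosts had at least 1 circRNA, and together they had 38 of the 11171 circRNAs listed: 9 from Prkcb, 7 each from Grm5 and Prkce, 5 from Itpr1, 3 each from Gnaq and Plcb1, 2 from Prkca, and 1 each from Itpr2 and Plcb4. None of the 61 circRNAs listed with several hosts had a member among them, so 0 rows were ambiguous.

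The cortex of 3 Control and 3 temporal lobe epilepsy (TLE) mice was sequenced, 1 library per mouse. All were C57BL/6 males (C57BL/6J in the study's methods) aged 6 weeks. TLE mice received scopolamine methyl bromide, which limits the peripheral action of the next drug, then the muscarinic agonist pilocarpine, which induces status epilepticus (SE), and diazepam to end the seizures, and their cortex was taken 24 h after SE. Control mice were given saline in place of each of these injections. Scopolamine, pilocarpine, diazepam and the seizures were present in the TLE group alone and cannot be told apart in these samples. No batch is given for the libraries.

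In this pathway glutamate activates mGluR5, the product of Grm5, which couples to the Gq alpha subunit encoded by Gnaq. Gq activates phospholipase C beta, and that enzyme splits the membrane lipid PIP2 into inositol trisphosphate and diacylglycerol. The first opens calcium channels of the endoplasmic reticulum, encoded by Itpr1 and Itpr2, and the second, with or without calcium, activates protein kinase C. In cortical neurons the pathway is known for slow changes of synaptic strength and of excitability. A circRNA forms when the end of an exon (the donor) is spliced back to the start of the same or an upstream exon (the acceptor), so the read that crosses this back-splice junction identifies it.

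The junction is the only stretch that separates a circRNA from the linear mRNA of its host, so the junction of 1 circRNA per host is given here. It is that of the circRNA with the highest mean signal, except for Grm5, where the leading circRNA opens in the 5′ UTR and the second is shown. Each line gives the last 20 bases of the donor exon in lower case followed by the first 20 bases of the acceptor exon in capitals, 5′ to 3′ in the sense of the host, from GENCODE M21 transcripts on build GRCm38.
Grm5 exon 9 to itself, chr7:88074191-88075130, plus strand: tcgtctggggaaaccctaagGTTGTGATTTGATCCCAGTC
Gnaq exon 5 to 3, chr19:16316017-16335110, plus strand: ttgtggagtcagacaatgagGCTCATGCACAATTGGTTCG
Plcb1 exon 9 to 4, chr2:135220718-135262274, plus strand: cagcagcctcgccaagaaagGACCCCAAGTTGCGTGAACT
Plcb4 exon 6 to 4, chr2:135907499-135910244, plus strand: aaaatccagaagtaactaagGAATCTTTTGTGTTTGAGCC
Itpr1 exon 44 to 43, chr6:108438300-108440687, plus strand: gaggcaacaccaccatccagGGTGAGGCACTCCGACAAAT
Itpr2 exon 9 to 3, chr6:146415321-146426570, minus strand: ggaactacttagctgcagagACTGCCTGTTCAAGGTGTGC
Prkca exon 8 to 6, chr11:108012627-108014381, minus strand: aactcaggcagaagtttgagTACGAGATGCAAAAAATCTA
Prkcb exon 8 to 6, chr7:122516829-122528572, plus strand: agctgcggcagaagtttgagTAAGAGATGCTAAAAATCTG
Prkce exon 10 to 7, chr17:86488160-86496111, plus strand: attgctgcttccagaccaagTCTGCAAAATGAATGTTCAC

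Signal is given in SRPBM, the authors' normalized count of spliced reads, in which junction reads are scaled by the mapped reads of the library. Because only the reads over 1 junction are counted, circRNAs of different length can be compared without a length correction. Every value was a whole multiple of a step of 8.55 to 10.3 SRPBM, taken as 1 junction read, and the smallest value listed was 2 reads. Between 32504 (TLE 1) and 56516 (TLE 3) junction reads were listed per library, and total signal ran from 330961 (Control 2) to 489032 SRPBM (TLE 3). Values of at most 3 reads (25.6 to 31.0 SRPBM, depending on the library) are called at or under the floor here, and a 0 is given as listed, since a junction with 1 read was not kept in the table. Of 9 neuronal marker genes, 4 hosted a circRNA, against 1 of 5 for astrocytes, 0 of 5 for oligodendrocytes, 0 of 4 for microglia and 0 of 5 for vessel cells. Camk2a, Slc17a7, Snap25, Gad1 and Gad2 were among those without one, and an expressed gene need not form a circRNA.

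Prkce, Grm5 and Prkcb carried nearly all of the signal of the 9 hosts, with 675, 336 and 147 of the 1239 member junction reads. Summed over its circRNAs, Prkce ranked 48 of 3469 host genes by mean signal, Grm5 121 and Prkcb 350. Prkce lay above Grm5 in each of the 6 libraries, although its lowest library (733 SRPBM) was under the highest of Grm5 (761 SRPBM). The ranges of Grm5 (341 to 761 SRPBM), Prkcb (114 to 320 SRPBM) and Plcb1 (17.1 to 105 SRPBM) did not overlap. Below Plcb1 the order Itpr1, Gnaq, Itpr2, Prkca and Plcb4 rested on 4 to 17 reads per host, and the ranges of these neighbours overlapped. In bulk cortex, fewer cells that make a circRNA and less of it per cell cannot be told apart.

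**Figure D1:**
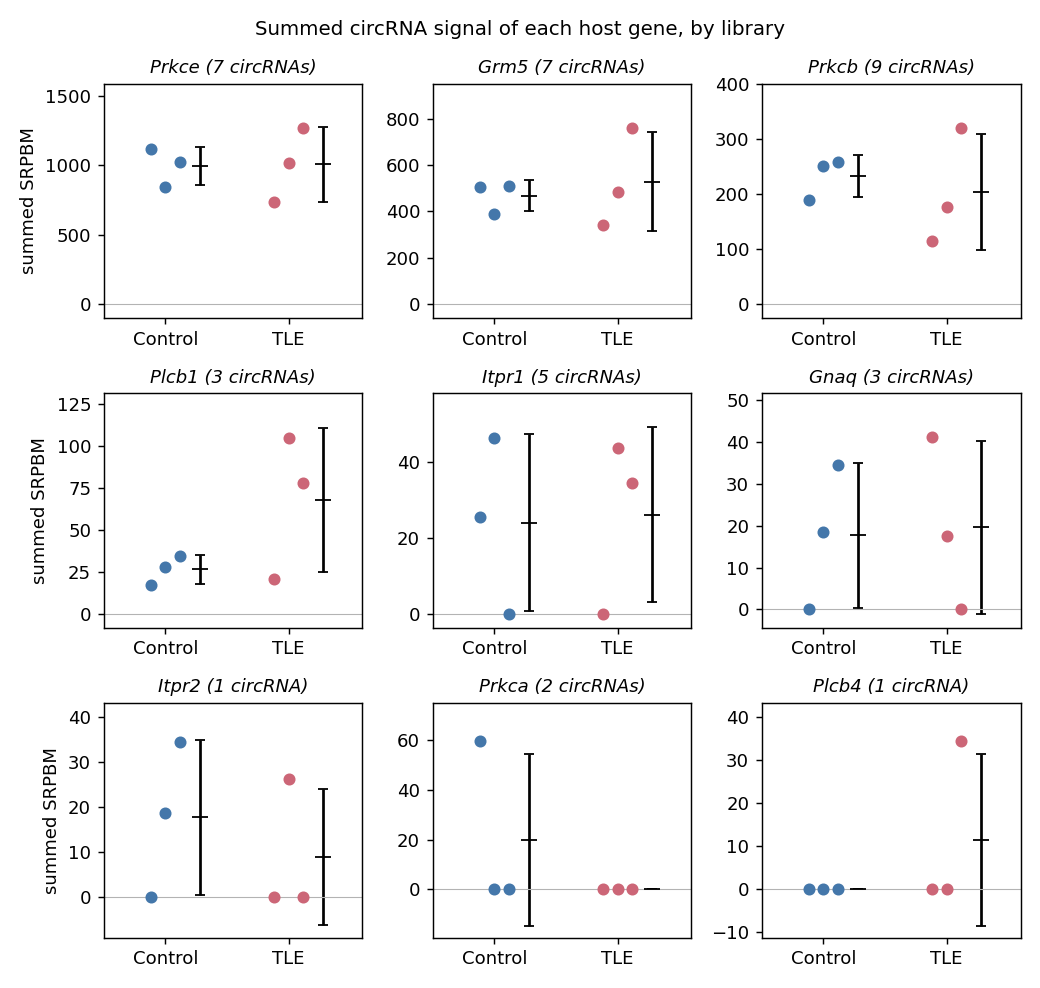
Summed circRNA signal in SRPBM (vertical axis, its own scale per panel, starting near or below 0) for each of the 9 host genes in 3 Control and 3 TLE libraries. Each dot is a library and each bar the mean ± SD of 3 libraries (where the SD passes below 0 the bar is drawn to its full length), and Control and TLE dots overlap in every panel.

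No member host passed the threshold between TLE and Control. For this comparison limma was fitted to log2(SRPBM + 17.1) of the sums, 17.1 SRPBM being the smallest value listed. A host counted as changed when its log2 fold change was 1.5 or more, up or down, and its unadjusted p under 0.05. This scale understates the change of hosts with few reads, and Itpr2, with 9 reads, could not reach 1.5 on it. Of the 2157 hosts above 0 in at least 3 libraries, 41 were counted (1.9%), and 0 of the 7 member hosts that were tested; Prkca and Plcb4 were each above 0 in 1 library and were not tested. The log2 fold changes of the 7 lay between -0.44 (Itpr2) and 0.82 (Plcb1), with a median of 0.046 against 0.20 for all hosts tested. Their unadjusted p was at least 0.191 and their limma adjusted p between 0.891 and 0.994, and none reached an unadjusted p under 0.05, as 133 of all hosts did. Control and TLE values overlapped in all 7, where 12.7% of all hosts tested did not overlap.

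Grm5 encodes the receptor at the head of the pathway. Its summed signal was 504, 390 and 508 SRPBM in Control 1, 2 and 3 and 341, 482 and 761 SRPBM in TLE 1, 2 and 3. The highest and the lowest library were both TLE, so that the Control values lay inside the TLE range. Control averaged 468 ± 66.8 SRPBM and TLE 528 ± 214 SRPBM (SD, n = 3 each). The log2 fold change was 0.11 (standard error 0.29, 95% interval -0.50 to 0.71, limma adjusted p = 0.961). It turned to -0.11 when all libraries were rescaled to the same total signal, and total signal was highest in TLE 3.

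Among the 7 circRNAs of Grm5, exons 2 to 3 (mmu_circ_0009606, 1003 nucleotides, chr7:87596116-87603201) held 56.3% of the reads. It contains 345 bases of 5′ UTR and the first 658 bases of the coding sequence, with the start codon. Its signal was 205, 279 and 276 SRPBM in Control and 176, 289 and 459 SRPBM in TLE, again with the TLE libraries on both sides of Control. The log2 fold change was 0.18 (standard error 0.32, 95% interval -0.50 to 0.86), and -0.036 after the rescaling. Over the 6 libraries its coefficient of variation was 35.1%, against 17.8% from counting error alone.

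Exon 9 alone (mmu_circ_0009612, 940 nucleotides) was the second circRNA of Grm5, with 103 reads, and covers coding bases 1688 to 2627 of 3513. Single-exon circRNAs were uncommon: 364 of the 9216 circRNAs placed on a transcript (3.95%) had this form, and 2 of the members, both from Grm5. The signal of the exon 9 circRNA was 188, 112 and 138 SRPBM in Control and 145, 132 and 208 SRPBM in TLE. Both groups spanned much the same range, and the log2 fold change was 0.13 (standard error 0.33, 95% interval -0.57 to 0.84), or -0.070 after rescaling. Its coefficient of variation, 23.8%, was that of counting error alone (24.1%). The other 5 circRNAs of Grm5 had 2 to 21 reads each.

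Gnaq, which encodes the Gq alpha subunit, had 3 circRNAs with 12 reads in all. Its summed signal was 0, 18.6 and 34.5 SRPBM in Control and 41.3, 17.5 and 0 SRPBM in TLE, so both groups held a library at 0 and a library whose sum was above the floor. The log2 fold change was 0.046 (standard error 0.67, 95% interval -1.36 to 1.45), an interval that spans most of the range between the thresholds. The leading circRNA, exons 3 to 5 (414 nucleotides), had 2 reads in each of Control 2, Control 3 and TLE 1 and 0 in the other libraries. No single Gnaq circRNA had more than 2 reads in any library, so each lay under the floor by itself.

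Of the phospholipase C beta genes, Plcb1 had 3 circRNAs and Plcb4 1. Summed Plcb1 signal was 17.1, 27.9 and 34.5 SRPBM in Control and 20.7, 105 and 77.9 SRPBM in TLE. TLE 2 and TLE 3 lay above all Control libraries and TLE 1 within them. The log2 fold change, 0.82 (standard error 0.61, 95% interval -0.45 to 2.09), was the highest among the 7 hosts tested, and it missed the threshold (unadjusted p = 0.191, limma adjusted p = 0.891). Without TLE 1, the library with the fewest junction reads, it was 1.33 with an unadjusted limma p of 0.0384, still under 1.5, and without TLE 2 it was 0.48, with an unadjusted limma p of 0.515.

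Exons 4 to 9 of Plcb1 (mmu_circ_0005729, 616 nucleotides) held 23 of its 32 reads and were listed in all 6 libraries, at 17.1, 27.9 and 17.2 SRPBM in Control and 20.7, 70.1 and 51.9 SRPBM in TLE. All Control values were 2 or 3 reads, at or under the floor. A second circRNA, exons 24 to 27, was listed in TLE 2 and TLE 3 alone, with 4 and 3 reads. Plcb4, whose product is a phospholipase C beta of selected brain regions, was listed in TLE 3 alone, at 34.6 SRPBM or 4 reads (exons 4 to 6, 285 nucleotides).

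Itpr1 and Itpr2 encode the channels that inositol trisphosphate opens. Itpr1 had 5 circRNAs with 17 reads, and its summed signal was 25.6, 46.5 and 0 SRPBM in Control and 0, 43.8 and 34.6 SRPBM in TLE. Each group had a library at 0, and the log2 fold change was 0.071 (standard error 0.70, 95% interval -1.40 to 1.54). None of its 5 circRNAs was listed in more than 1 library, and each had 2 to 5 reads. Forms that differ between libraries cannot be told apart here from forms that were missed. Itpr2 had 1 circRNA, exons 3 to 9 (788 nucleotides), at 0, 18.6 and 34.5 SRPBM in Control and 0, 26.3 and 0 SRPBM in TLE, a log2 fold change of -0.44 (standard error 0.65, 95% interval -1.80 to 0.93 in the host sums).

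Prkce, which encodes protein kinase C epsilon, a form that responds to diacylglycerol without calcium, had the highest signal of the group. Its sum was 1119, 846 and 1025 SRPBM in Control and 733, 1017 and 1272 SRPBM in TLE. As for Grm5, TLE 1 was the lowest and TLE 3 the highest of the 6 libraries. Control averaged 997 ± 139 SRPBM and TLE 1007 ± 269 SRPBM (SD, n = 3 each). With a log2 fold change of -0.010 (standard error 0.24, 95% interval -0.51 to 0.49, limma adjusted p = 0.994), this was the most tightly bounded of the 7 hosts tested, and a change of 1.5 on the log2 scale lay outside its interval. After the rescaling to the same total signal it was -0.23.

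Exons 7 to 10 of Prkce (mmu_circ_0003887, 614 nucleotides, coding bases 824 to 1437 of 2211) held 499 reads, 73.9% of the host, and ranked 45 of 11171 circRNAs by mean signal. Its signal was 931, 632 and 758 SRPBM in Control and 475, 745 and 891 SRPBM in TLE (774 ± 150 against 704 ± 211 SRPBM, SD, n = 3 each). Control 1 was the highest and TLE 1 the lowest, with the other 4 libraries between them. The log2 fold change was -0.16 (standard error 0.26, 95% interval -0.70 to 0.38, limma adjusted p = 0.922), and the coefficient of variation over 6 libraries was 22.8%, against 11% from counting error. After rescaling the log2 fold change was -0.38, with an unadjusted limma p of 0.0526, and without TLE 1 it was 0.090.

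The neighbouring circRNA of Prkce, exons 3 to 6 (mmu_circ_0003885, 411 nucleotides), was the single tested member whose groups did not overlap. It was 68.4, 102 and 94.7 SRPBM in Control and 103, 132 and 173 SRPBM in TLE. The gap was narrow: the lowest TLE library had 10 reads and the highest Control library 11, in libraries of different depth. Its log2 fold change was 0.53 (standard error 0.36, 95% interval -0.24 to 1.29, unadjusted p = 0.167, limma adjusted p = 0.922), and 0.33 after rescaling. A further form, exons 7 to 11 (mmu_circ_0003888, 769 nucleotides), which shares its acceptor with the leading circRNA and ends an exon later, was 51.3, 46.5 and 121 SRPBM in Control and 103, 96.4 and 138 SRPBM in TLE. Control 3 lay among the TLE libraries, and the log2 fold change was 0.61 (standard error 0.42, 95% interval -0.27 to 1.49, limma adjusted p = 0.922). Without Control 3 it was 0.96 with an unadjusted limma p of 0.04998, under the threshold of 1.5, and without Control 2 it was 0.41. Exons 3 to 5, with 24 reads, was the fourth form found in all 6 libraries, at 25.8 to 46.5 SRPBM.

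Prkca and Prkcb encode conventional protein kinases C, which need both calcium and diacylglycerol. Summed Prkcb signal was 188, 251 and 258 SRPBM in Control and 114, 175 and 320 SRPBM in TLE, with TLE libraries again at both ends of the range. The log2 fold change was -0.28 (standard error 0.36, 95% interval -1.04 to 0.48, limma adjusted p = 0.907), or -0.49 after rescaling. In contrast to Prkce, no form dominated: exons 6 to 8 (mmu_circ_0009054) held 32.7% of the reads, exons 6 to 9 held 21.8% and exons 11 to 16 held 17.7%. The first of these was 68.4, 74.4 and 51.7 SRPBM in Control and 62.0, 35.1 and 138 SRPBM in TLE, a log2 fold change of 0.085 (standard error 0.47, 95% interval -0.92 to 1.09), or -0.10 after rescaling. Prkca was listed in Control 1 alone, with 5 reads of exons 6 to 8 and 2 of exons 4 to 5, together 59.8 SRPBM.

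Taken circRNA by circRNA, 0 of the 18 members tested were counted as changed at the same threshold, where 67 of all 4271 circRNAs tested (1.57%) were. The other 20 members, above 0 in 1 or 2 libraries, were not tested. On the log2(SRPBM + 17.1) scale, tested members with 6 to 9 reads could not reach 1.5, however their reads fell. For those members the outcome was fixed in advance. Among the 18, 10 had a positive and 8 a negative log2 fold change, from -0.82 (Grm5 exons 5 to 8) to 0.70 (Plcb1 exons 4 to 9), with a median of 0.10 against 0.17 for all circRNAs tested. No member reached an unadjusted p under 0.05 (lowest 0.162), and limma adjusted p was 0.922 to 0.978; 222 of all circRNAs (5.20%) reached it, with a smallest adjusted p of 0.838. Groups without overlap were found for 1 of the 18, against 11.1% of all circRNAs tested. The median of all circRNAs fell from 0.17 to 0.0069 when libraries were rescaled to the same total signal. The counts over all circRNAs were then 37 higher and 25 lower in TLE, against 54 and 13 as deposited. The balance also turned with a library left out, with 33 higher and 55 lower without TLE 3, and 40 and 42 without TLE 2. In each of these, 0 members were counted.

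**Figure D2:**
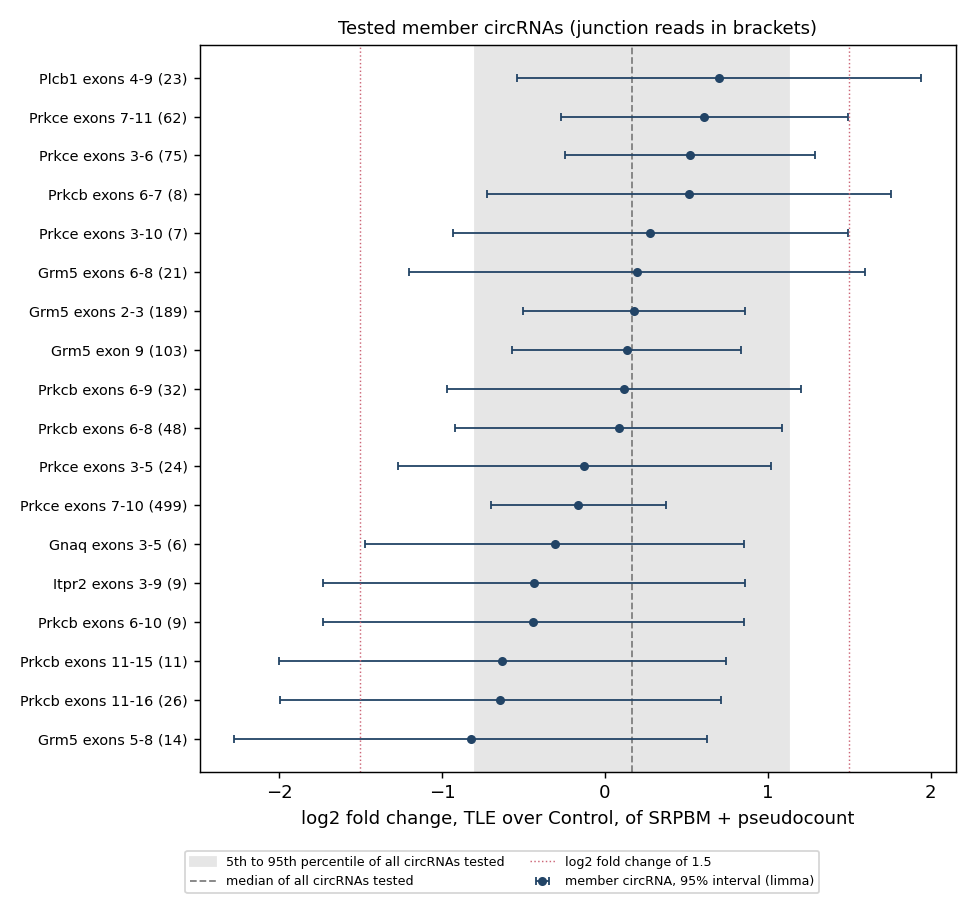
Log2 fold change, TLE over Control, on the log2(SRPBM + 17.1) scale (horizontal axis) for the 18 member circRNAs above 0 in at least 3 libraries, with their junction reads in brackets. Dots and bars are limma estimates with 95% intervals; all 18 intervals include 0, and the dots lie between -0.82 and 0.70, inside the dotted lines at -1.5 and 1.5. The grey band holds the 5th to 95th percentile of all 4271 circRNAs tested (-0.80 to 1.13) and the dashed line their median.

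The members had a share of the total signal of 0.545%, 0.483% and 0.526% in Control and 0.372%, 0.457% and 0.511% in TLE. The averages were 0.518 ± 0.0315% and 0.447 ± 0.0701% (SD, n = 3 each). The Control mean lay above every TLE library, although the groups overlapped, with TLE 3 above Control 2; this difference was given no test. Of the 38 members, 9 (23.7%) were listed in all 6 libraries, against 13.9% of all circRNAs, and 16 (42.1%) in a single library, against 45.4%. Their median was 6.5 reads over 6 libraries against 5, and 25 of them (65.8%) had at most 10 reads. The 9 listed in all libraries were 4 forms of Prkce, 2 of Grm5, 2 of Prkcb and 1 of Plcb1.

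Per library, 18, 19 and 20 members were detected in Control and 13, 19 and 20 in TLE. TLE 1, which had the fewest junction reads, was the single library under 18. The means, 19 ± 1 and 17.3 ± 3.79 (SD, n = 3 each), did not differ beyond the spread (p = 0.9 by a two-sided exact permutation test, which with 3 libraries a group cannot go below 0.1). Without TLE 1 the difference, TLE minus Control, moved from -1.67 to 0.5. At the depth of TLE 1, the expected number of members was 16.7, 17.8 and 17.3 in Control and 13.0, 16.3 and 16.6 in TLE. All Control libraries then lay above all TLE libraries, by less than 1 circRNA between Control 1 and TLE 3, with a difference of -1.94 (exact permutation p = 0.1, two-sided and the smallest possible). With at least 3 reads required, the difference was 0.667 in the other direction. In Control alone 11 members were listed (28.9%, against 22.6% of all circRNAs), each in 1 library with at most 5 reads, and in TLE alone 7 (18.4%, against 30.5%), each with at most 7 reads. With a floor of 3 reads, neither number separates a circRNA absent from a group from one that was missed.

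The share of a host's reads held by its leading circRNA was compared for the 3 hosts with at least 60 reads, Prkce, Grm5 and Prkcb. In Prkce it was 83.2%, 74.7% and 73.9% in Control and 64.8%, 73.3% and 70.1% in TLE. All TLE values lay under all Control values, and the Wilson 95% intervals of TLE 2 (64.6 to 80.5%) and Control 3 (65.4 to 81.0%) almost coincided. The difference of the means was -7.92 points (exact permutation p = 0.1, two-sided and the smallest possible; adjusted p = 0.3 over 3 hosts). Leaving out any 1 library kept the sign, between -4.96 and -9.87 points. In Grm5 the share was 55.4 ± 15.4% in Control and 57.2 ± 4.97% in TLE, and in Prkcb 28.7 ± 8.22% and 39.3 ± 17.6% (SD, n = 3 each; exact permutation p = 1 and 0.4, adjusted p = 1 and 0.6). The Prkcb difference of 10.6 points was 2.96 without TLE 1 and 20.2 without TLE 2, and that of Grm5, 1.80 points, was -5.59 without Control 1 and 9.79 without Control 2. The Wilson intervals and the floors cover the counting error within a library only, and leave out variation between mice. No molecular identifiers are named in the paper's methods.

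**Figure D3:**
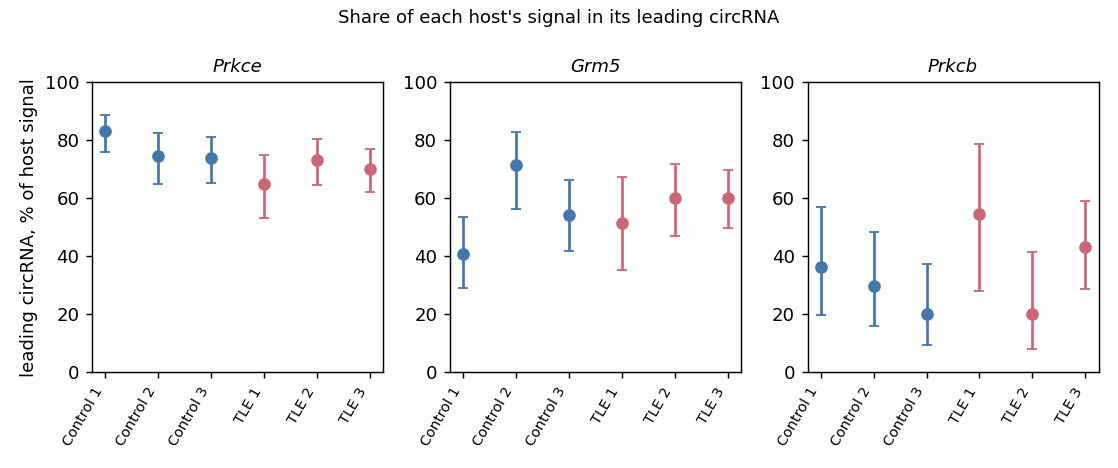
Share of host junction reads held by the leading circRNA (vertical axis, percent, 0 to 100) of Prkce (exons 7 to 10), Grm5 (exons 2 to 3) and Prkcb (exons 6 to 8) in each library, with Wilson 95% intervals. In Prkce the Control dots run from 73.9 to 83.2% and the TLE dots from 64.8 to 73.3%, and in the other hosts the groups overlap.

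Both ends of 35 of the 38 members lay on exon boundaries of an annotated transcript (GENCODE M21), against 82.5% of all 11171 circRNAs. The latter include 837 without a host and 61 with several, for which no placement was made. Of the 10273 with a single host, as all members have, 9216 were placed. The 3 members not placed, from Gnaq, Prkcb and Prkce, had 2 reads each, and each had 1 end on a boundary. Members had a median of 4 exons and 543 nucleotides between their ends, against 4 exons and 608 nucleotides for all placed circRNAs, and these lengths follow from the annotation, since junction reads do not show which inner exons were kept. Between 2 and 5 exons lay in 26 (74.3%), against 62.8%. None included the first or the last exon of its transcript, and of the 9216 placed circRNAs 25 included the first and 8 the last. In 33 members (94.3%) every base was coding sequence, against 82.2%, the exceptions being the Grm5 forms of exons 2 to 3 and exon 3 alone. Exon 2 was the first exon of 2 members (5.71%), against 29.4% of all, as only Grm5 exons 2 to 3 and Gnaq exons 2 to 5 began there.

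Members of a host often shared an end. An acceptor or a donor site was shared with another circRNA of the same host in 29 of 38 members (76.3%), against 67.7% of 10273 circRNAs with a single host. In Itpr1, 4 of 5 circRNAs ended at the donor of exon 44 (position 108440687) and began at exons 13, 38, 41 and 43. In Prkcb, 4 of 9 began at the acceptor of exon 6 (position 122516829) and ended at exons 7, 8, 9 and 10. In Prkce, 3 began at exon 3 and 3 ended at exon 10. Exons 8 to 10 lay within circRNAs holding 85.0% of its reads, among them the form of exons 7 to 11 with 62 reads. Exons 43 and 44 of Itpr1 lay within 88.2% of its 17 reads, and exons 6 and 7 of Prkcb within 66.0% of its 147.

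**Figure D4:**
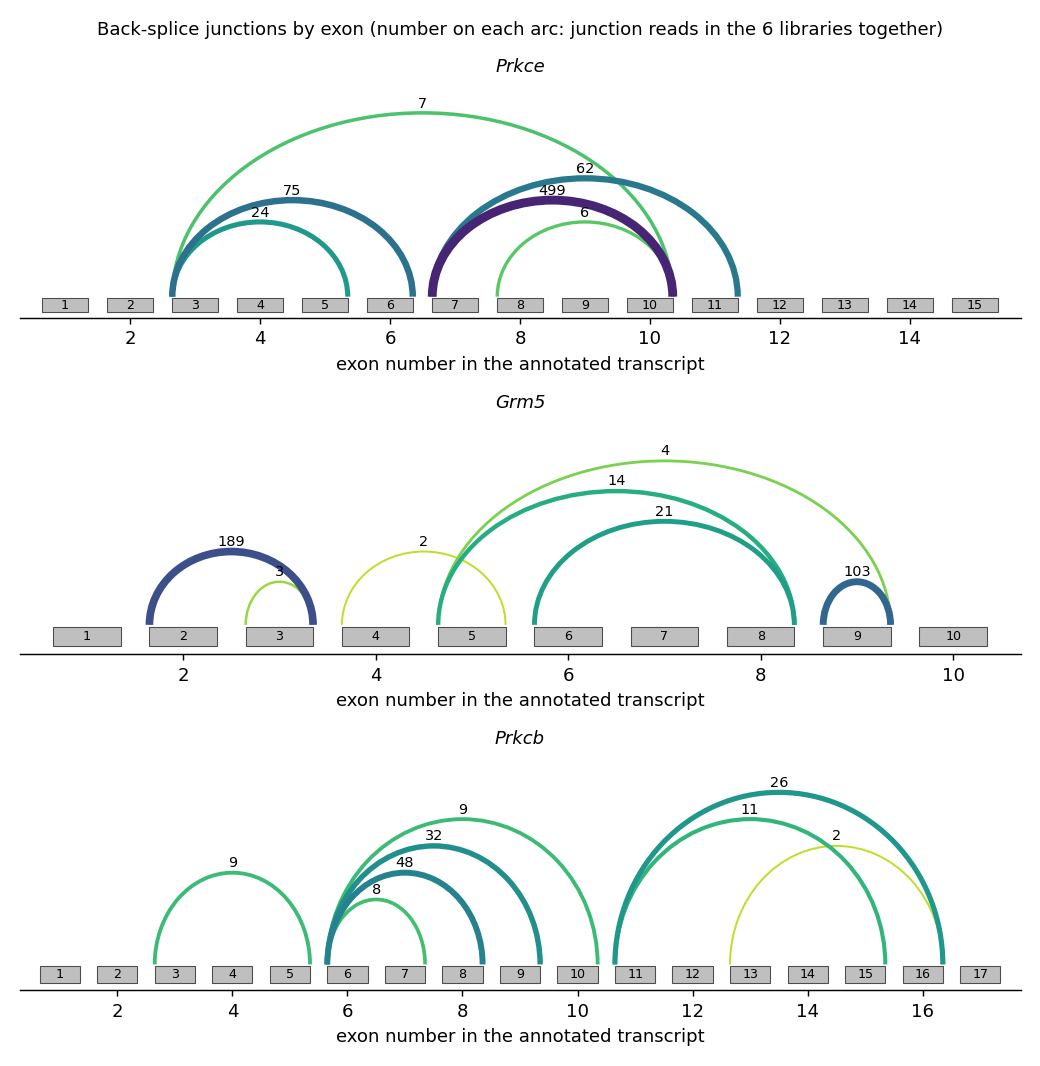
Back-splice junctions of Prkce, Grm5 and Prkcb drawn over the exons of the annotated transcript (horizontal axis, exon number, exons not to length). Each arc joins the first and last exon of a placed circRNA, its number and line width give the junction reads over 6 libraries, and its height carries no value; the arcs of 499, 189 and 48 reads are the leading forms, and several arcs end directly before the exon at which another starts.

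In 5 of the 7 hosts with several placed circRNAs, a circRNA ended at the exon directly before that at which another began. The exons of Prkce divided at the boundary of 6 and 7 (exons 3 to 6, then 7 to 10 or 7 to 11), and those of Grm5 at 3 and 4, 5 and 6, and 8 and 9 (exons 2 to 3, 4 to 5, 6 to 8, then 9), which together cover coding bases 1 to 2627. Prkcb divided at 5 and 6 and at 10 and 11, Itpr1 at 44 and 45, and Prkca at 5 and 6. Such a partner was held by 23 of 33 member circRNAs (69.7%), against 36.6% of 7671 circRNAs in 1776 hosts. Hosts with more circRNAs have more chances for a partner, and among hosts with 5 to 8 placed circRNAs the figures were 21 of 26 for the 4 members (80.8%) and 38% of 2290 circRNAs in 379 hosts. These are counts on few hosts, in which circRNAs that share an end are counted together, and they are given without a test. Some of the forms counted were weak. Grm5 exons 4 to 5, Itpr1 exons 45 to 46 and Prkca exons 4 to 5 had 2 reads each, in 1 library. The divisions of Itpr1 and Prkca, and those of Grm5 at exons 3 and 4 and at 5 and 6, rest on these forms. Named boundaries were also crossed: by Grm5 exons 5 to 8 (14 reads) and 5 to 9 (4), and Prkce exons 3 to 10 (7).

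Prkca and Prkcb, genes on different chromosomes that encode related kinases, had the same leading circRNA by exon number. Exons 6, 7 and 8 were 157, 135 and 97 bases long in both, and both circRNAs covered coding bases 530 to 918, of 2016 in Prkca and 2019 in Prkcb. Over these 389 bases 283 were identical (72.8%), with a longest identical run of 19, and 34 of the 40 bases printed above around the junction matched. Equal length was not particular to these exons, as it held for exons 3 to 8 and 10 to 16. Of exons 3 to 16, exon 9 alone differed, with 138 and 147 bases. The levels were far apart, with 48 reads in 6 libraries for Prkcb and 5 reads in Control 1 for Prkca, where Prkcb had 8.

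Of 82 other genes of the pathway, 31 hosted a circRNA, and 29 of them were tested in the host sums. None passed the threshold in either direction, where 1.9% of all hosts did, and 3 had an unadjusted p under 0.05, against 6.17% of all hosts. Circular forms were found for 5 of 7 other metabotropic glutamate receptors, 4 of 15 G proteins and phospholipases C, 7 of 16 genes of calcium release and entry, 2 of 12 other protein kinases C, D and N, 5 of 13 scaffolds and regulators, and 8 of 19 genes of lipid and inositol phosphate turnover. The median log2 fold change of the 29 was 0.20, the same as for all hosts. The 3 with the highest signal were Ryr2, a ryanodine receptor that releases calcium from the same store (0.18, standard error 0.22), Homer1, the scaffold that ties mGluR5 to the inositol trisphosphate receptor (0.58, standard error 0.24), and Pi4ka, a lipid kinase at the start of PIP2 synthesis (0.26, standard error 0.27).

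Homer1 was 573, 511 and 612 SRPBM in Control and 1043, 684 and 857 SRPBM in TLE. All TLE libraries lay above all Control libraries, and the unadjusted p was 0.0271 (limma adjusted p = 0.766). Grm4, a receptor paralogue coupled to another class of G proteins, and named after its values were seen, was 51.3, 37.2 and 60.3 SRPBM in Control and 155, 149 and 86.5 SRPBM in TLE, a log2 fold change of 1.12 (standard error 0.45, limma adjusted p = 0.766). Its groups did not overlap either. The groups were also apart, in the opposite direction, for 2 further genes, so that 4 of the 29 did not overlap, against 12.7% of all hosts. These were Grm8, another receptor paralogue, at 25.6, 55.8 and 25.8 SRPBM in Control and 0, 17.5 and 0 SRPBM in TLE (log2 fold change -1.24, standard error 0.62, limma adjusted p = 0.834), and Stim2, a calcium sensor of the endoplasmic reticulum, at 94.0, 112 and 138 SRPBM in Control and 72.3, 70.1 and 69.2 SRPBM in TLE (-0.57, standard error 0.42, limma adjusted p = 0.891), both named after their values were seen. The third gene with an unadjusted p under 0.05, Pip5k1b, a kinase that makes PIP2 and likewise named after its values were seen, was 590, 446 and 724 SRPBM in Control and 258, 465 and 433 SRPBM in TLE, a log2 fold change of -0.60 (standard error 0.29, limma adjusted p = 0.798).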

How the data were processed

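Ribosomal RNA was removed from total RNA of the cortex and directional libraries were sequenced. Per the paper's methods, the authors found circRNAs with CIRI on BWA-MEM alignments (versions not given in the sources used here; build mm10 per the submitters' processing notes) and deposited a normalized signal, SRPBM, for each circRNA. The 6 deposited files were identical and were read once. The submitters' notes also name DESeq2. Hosts were matched by Ensembl identifier, and 3466 of 3469 had a symbol.

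The signal was compared with limma 3.58.1 (trended moderation, R 4.3.3) on log2(SRPBM + 17.1), without batch terms, for circRNAs and host sums above 0 in at least 3 libraries, with Benjamini-Hochberg adjustment over all features. The threshold, a log2 fold change of 1.5 and p under 0.05, is that of the study. The paper's methods give it for DESeq2, whereas here it was applied to limma estimates on another scale. The counts are therefore not those of the study's own criterion. Count models were not used, because the deposited values are normalized and omit junctions of 1 read. Junction reads were recovered as whole multiples of the library's step (100% of values within 0.01), and served only for counts, shares and intervals.

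CircRNAs were placed on the transcript of each host that holds most of them in GENCODE M21 (GRCm38, the same assembly as mm10). Given in full are the leading circRNA of each host, those with at least 60 reads, those past the threshold and tested ones whose groups did not overlap. Other pathway genes were to be named where past the threshold or among the 3 highest. Grm4, Grm8, Stim2 and Pip5k1b were added after their values were seen, for groups that did not overlap or an unadjusted limma p under 0.05. The members and lists were chosen with earlier results of these data known.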

Additional observations from a re-analysis of the deposited data

How the results depend on the processing

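In every setting tried, 0 member circRNAs and 0 member hosts passed the threshold. The count over all circRNAs, 67, became 168 with a pseudocount of 8.55 SRPBM (1 read), 130 with 1 SRPBM and 196 with a log2 fold change of 1, and 82 to 110 with a library left out (105 without Control 1, 110 without Control 3). The count over hosts, 41, became 77 with the pseudocount of 1 read, 109 with a log2 fold change of 1 and 41 to 65 with a library left out (65 without TLE 1). The smallest adjusted p over all circRNAs ran from 6.3e-06 with no filter on low values to 0.979 without Control 1, and was 0.00774 without TLE 1.

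Rescaling to the same total signal turned 5 of 16 single member values, and no other setting turned any: the log2 fold change became -0.036 for mmu_circ_0009606, -0.070 for mmu_circ_0009612, -0.10 for mmu_circ_0009054, -0.10 for Itpr1 and -0.11 for Grm5. Leaving out a library turned 17 of 87, all of them within the error of the estimate. The log2 fold changes then ran from -0.14 to 0.51 for mmu_circ_0009606, -0.045 to 0.31 for mmu_circ_0009612, -0.34 to 0.45 for mmu_circ_0009054, -0.35 to 0.090 for mmu_circ_0003887, -0.40 to 0.51 for Gnaq, -0.46 to 0.64 for Itpr1, -0.19 to 0.20 for Prkce, -0.19 to 0.37 for Grm5 and -0.64 to 0.042 for Prkcb. Those that kept their sign ran from 0.48 to 1.33 for Plcb1, 0.44 to 1.05 for mmu_circ_0005729, 0.36 to 0.69 for mmu_circ_0003885, 0.41 to 0.96 for mmu_circ_0003888, -0.65 to -0.12 for mmu_circ_0004324 and -0.88 to -0.21 for Itpr2. Itpr2 and mmu_circ_0004324 were above 0 in 3 libraries, the fewest that the filter allows. For them only libraries at 0 could be left out, so the sign they kept is no test of its stability. The difference in members detected was 0.667 when 3 reads were required, and -3 to 0.5 with a library left out. The difference in the leading share of Grm5 ran from -5.59 points (without Control 1) to 9.79 points, and that of Prkcb from 2.96 to 20.2 points. The cause was not tested.

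Correlations between Control and TLE libraries of the same replicate number were small (0.0192, 0.0139 and 0.0103). Those between libraries of different number were all lower, from -0.0242 to 0.00922. With the replicate number as a block, 67 circRNAs, 41 hosts and 0 members were counted, and no call changed. The planned count models were not run, since the deposited signal omits junctions of 1 read. Most members had 10 reads or fewer, which limits what could be detected.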
